A study of Apis mellifera ligustica with 11 samples.

Results

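The genes described here encode parts of acetylcholine transmission in the brain of the Italian honeybee, Apis mellifera ligustica. They were chosen by name, as the rows of the deposited table whose symbol begins with nAChR or AChE, or whose description contains nicotinic acetylcholine receptor, acetylcholinesterase or choline O-acetyltransferase. These 13 of 9974 rows comprise 10 subunits of the nicotinic receptor, 2 acetylcholinesterases (AChE-2 and LOC410270) and 1 choline O-acetyltransferase (LOC408934). All 13 averaged at least 1 FPKM (fragment counts scaled to transcript length and library size) over the libraries and so entered the test, as did 7830 rows in all. LOC408525, described as neuronal acetylcholine receptor subunit alpha-10, lies just outside the wording of the rule.

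The 11 libraries were made from brain tissue sampled 1 day before fluvalinate exposure (3 libraries), and 10 days (2), 20 days (3) and 30 days (3) after it. Fluvalinate is a pyrethroid used in hives against mites, and it was given at the usual dose with treatment repeated every 7 days. All groups are the same subspecies and tissue, from which the royal jelly glands and pigments had been taken off, and the labels give neither the bees' age nor whether bees were pooled. Unexposed bees of the later days were not analysed here, so exposure and elapsed time cannot be told apart. The treatment protocol speaks of a control set and a test set, so the libraries before exposure may also differ by set. The labels do not say whether the libraries of a time are separate colonies or pools, so p-values measure the spread between these libraries only.

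Acetylcholine is the main fast excitatory transmitter of the insect brain. Choline O-acetyltransferase makes it, pentameric nicotinic receptors, which are cation channels, open when they bind it, and acetylcholinesterase in the synapse breaks it down. Alpha subunits carry a pair of neighbouring cysteines in the loop that binds the transmitter, and beta subunits lack this pair. Neonicotinoid insecticides act on these receptors and organophosphates and carbamates on the cholinesterase, whereas pyrethroids such as fluvalinate act on the voltage-gated sodium channel.

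The libraries differed in ways that touch every value below. The 10 hypopharyngeal gland markers, genes of the head gland that makes royal jelly, summed to 6161 to 14062 FPKM before exposure. Their sum was 98756 and 135903 FPKM in the day 10 libraries, from 46648 to 88546 FPKM in those of day 20, and from 5332 to 42668 FPKM in those of day 30. The 14 neuron markers summed to 927 to 979 FPKM before exposure and to 414 and 577 FPKM at day 10. In the later libraries the neuron sum was 722 to 807 FPKM (day 20) and 780 to 1001 FPKM (day 30). Of the neuron markers 10 of 14 fell at day 10, and of the gland markers 7 of 10 rose. The 9 fat body markers summed to 90.5 to 125 FPKM before exposure, 766 and 373 FPKM at day 10 and 638 FPKM in day 30 replicate 2, and 1 of 7 tested rose at day 10. The 7 glia markers summed to 2255 to 3061 FPKM before exposure and 1708 and 2168 FPKM at day 10, where 2 of 7 fell. None of these markers was at 0 in all libraries. The 13 photoreceptor markers summed to 405 to 749 FPKM before exposure and 1284 to 1301 FPKM at day 30, with 0 of 12 tested called there. The 21 muscle markers, 1 of them at 0 throughout, summed to 503 to 688 FPKM before exposure. Their sum was 311 to 427 FPKM at day 20 and 274 to 475 FPKM at day 30, with 0 of 15 tested called. The part of all these markers in the results was not tested, and in bulk tissue fewer cells of a type and less RNA per cell cannot be told apart. At day 10 against before exposure the median of all genes was a log2 difference of -0.18, and median-of-ratios scaling moved it to 0.02. The log2 differences below are differences of log2(FPKM + 1) minus that of the median gene in the same comparison, while the p-values test the values as deposited.

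Before exposure the members spanned a wide range of levels. AChE-2 was the most abundant, at 83.6, 70.82 and 69.2 FPKM, and every library of the 3 was above every value of the next member. It ranked highest of the 13 in all 11 libraries. Next came the beta subunit nAChRb1 (38.6 ± 1.59 FPKM, SD, n = 3), the other cholinesterase LOC410270 (35.1 ± 6.50), the alpha subunit nAChRa2 (33.3 ± 5.20), the transmitter-making enzyme LOC408934 (25.4 ± 8.12) and nAChRa3 (24.0 ± 2.83). Neighbours within this run of 5 overlapped in their libraries, so the order of neighbours is not resolved, though nAChRb1 was above LOC408934 and nAChRa3 without overlap. A step separated nAChRa3 from nAChRa8 (19.1 ± 0.965) and nAChRa4 (17.6 ± 2.1), which overlapped each other, and a further step separated these from nAChRa7 (10.0 ± 2.45). nAChRa6 (5.25 ± 0.845), nAChRa1 (3.80 ± 2.83), nAChRb2 (2.40 ± 0.410) and nAChRa9 (1.86 ± 0.747) were lowest, each overlapping the next.

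The 3 subunits most abundant before exposure made up between 59.6% and 64.9% of the summed FPKM of the 10 subunits in each library. LOC408525, at 18.0 ± 2.28 FPKM (SD, n = 3) before exposure, is not in this sum, so shares of all receptor transcripts would be smaller. nAChRb1 gave between 23.1% and 28.6% of the summed FPKM of the 10 subunits in a library, nAChRa2 between 19.1% and 24.6%, and nAChRa3 between 13.4% and 17.4%. Together these 3 subunits made up 61.5% ± 0.313 (SD, n = 3) before exposure, 60.4% ± 1.21 (n = 2) at day 10, 62.4% ± 0.554 (n = 3) at day 20 and 64.4% ± 0.568 (n = 3) at day 30. All 3 day 30 libraries were above the 3 before exposure, a description with no test. The shares of nAChRb2 and nAChRa9 were larger at day 10, at means of 3.31% and 3.54%, than before exposure, at 1.56% and 1.17%.

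**Figure D1:**
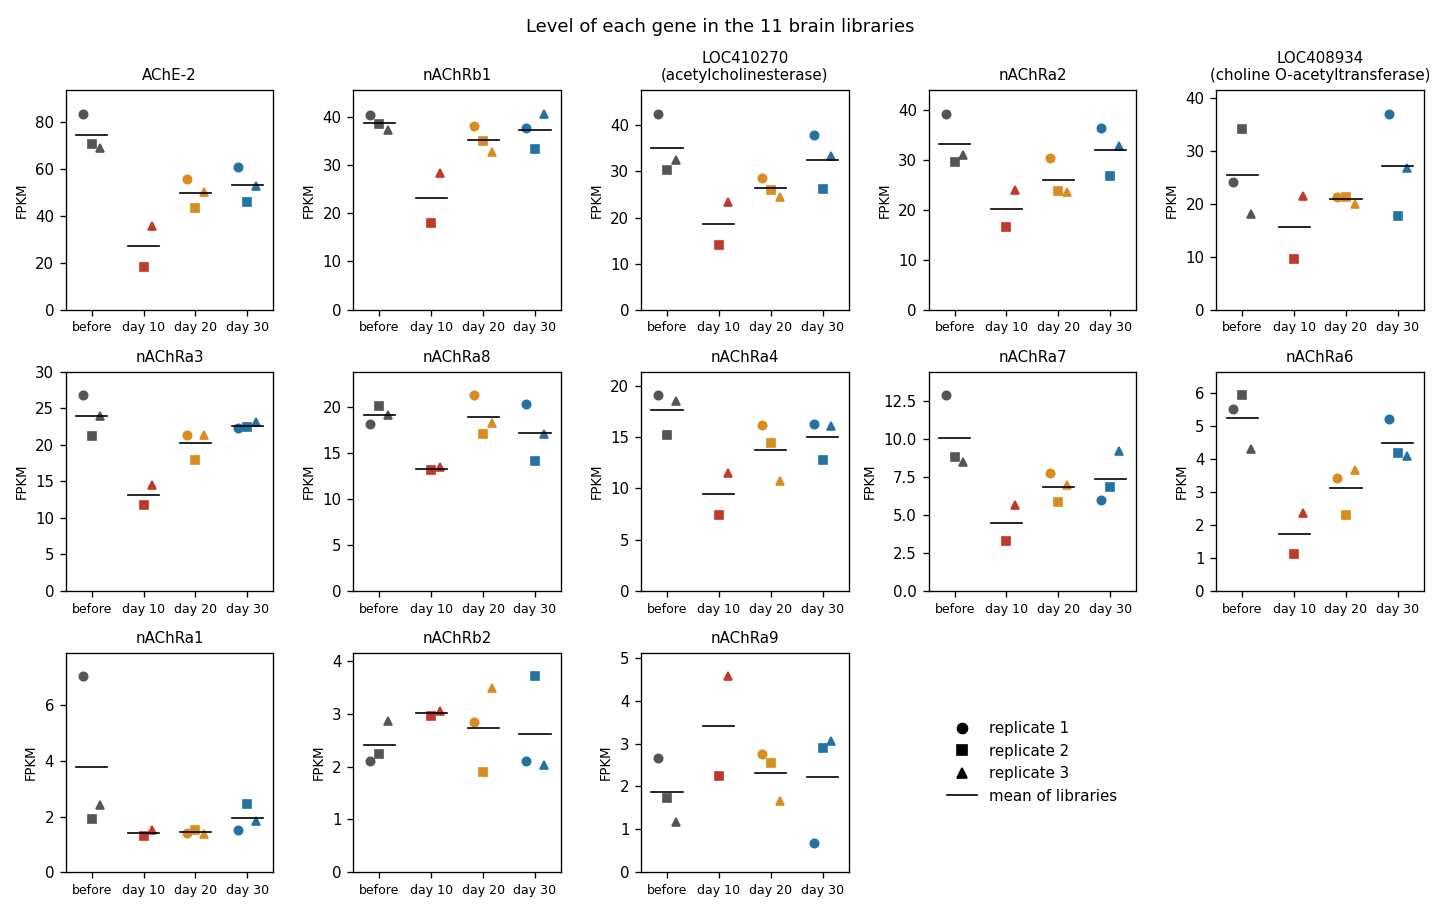
FPKM (vertical axis, each panel starting at 0) of the 13 genes in each library by sampling time, with the mean of the libraries as a bar and the replicate number as the symbol shape. AChE-2 stood at 18.36 and 35.75 FPKM at day 10 against 69.2 to 83.6 before exposure, whereas nAChRb2 and nAChRa9 showed no such drop.

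At day 10 the 2 cholinesterases and 7 of the 10 receptor subunits were lower than before exposure. Of the 13 members 9 fell and none rose (limma, adjusted p under 0.05), while 16.9% of all genes tested were called lower and 2.22% higher. The median log2 difference of the members as deposited was -0.82, against -0.18 for all genes. In 10 members both day 10 libraries lay below all 3 libraries before exposure, which held for 38.3% of all genes, and in nAChRb2 both lay above, which held for 9.74%. Day 10 replicate 2 was the lower of the 2 libraries in all 9 members that fell. Without it 1 library remains at day 10, assumed to vary like the others, and 0 members passed with limma, with 8 at an unadjusted p under 0.05 and 2 genes of all passing. Without before-exposure replicate 1 the count was 4, with 869 of all genes (11.1%) called lower. These members were AChE-2, nAChRa3, nAChRa6 and nAChRb1. The same 4 were called with median-of-ratios scaling, where 449 genes (5.73%) were called lower and 313 (4%) higher, against 1326 and 174 as deposited. Without before-exposure replicate 3, nAChRa2, nAChRa4 and nAChRa8 did not pass, and 787 of all genes (10.1%) were called lower.

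AChE-2, which breaks down acetylcholine, had the largest log2 difference of the 13 with the pseudocount of 1. With a pseudocount of 0.1 that of nAChRa6 was larger, at -1.61 as deposited against -1.53 for AChE-2. AChE-2 stood at 18.36 and 35.75 FPKM at day 10, against 83.6, 70.82 and 69.2 FPKM before exposure. Both day 10 libraries were far below the earlier range, at 24.6% and 48.0% of the mean before exposure. The log2 difference was -1.32 ± 0.23 (SE; limma, adjusted p = 0.00568). Without day 10 replicate 2 the difference as deposited went from -1.50 to -1.03 with adjusted p = 0.0921. LOC410270, described as acetylcholinesterase, stood at 13.94 and 23.45 FPKM at day 10, against 42.48, 30.32 and 32.4 FPKM before exposure. Its groups did not overlap, and it fell by 0.72 ± 0.22 (SE; limma, adjusted p = 0.016).

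Among the alpha subunits the largest fall was that of nAChRa6, whose Drosophila namesake is the target of the insecticide spinosad. It stood at 1.13 and 2.35 FPKM at day 10, against 5.51, 5.94 and 4.31 FPKM before exposure. The groups did not overlap, and the log2 difference was -1.04 ± 0.24 (limma, adjusted p = 0.008). nAChRa3, a subunit of the more abundant group, stood at 11.81 and 14.56 FPKM, against 26.83, 21.18 and 23.97 FPKM before exposure. Its 2 day 10 libraries were closer to each other than those of AChE-2, and it fell by 0.64 ± 0.15 (limma, adjusted p = 0.00631). nAChRa7, which in Drosophila is needed for the escape jump, stood at 3.29 and 5.66 FPKM, against 12.86, 8.78 and 8.47 FPKM before exposure. It fell by 0.85 ± 0.25 (limma, adjusted p = 0.0155), again with no overlap.

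The other alpha subunits that fell were nAChRa4, nAChRa2 and nAChRa8. nAChRa4 went from 17.6 ± 2.1 (SD, n = 3) to 9.46 ± 2.86 FPKM (n = 2) and nAChRa2 from 33.3 ± 5.20 to 20.3 ± 5.16 FPKM, with log2 differences of -0.68 ± 0.21 and -0.52 ± 0.19 (limma, adjusted p = 0.0177 and 0.0264). nAChRa8 stood at 13.1 and 13.5 FPKM at day 10, against 18.17, 20.1 and 19.13 FPKM before exposure. Its spread was the smallest of these, and its call the narrowest, with a log2 difference of -0.49 as deposited (limma, adjusted p = 0.0487). Relative to the median gene the log2 difference was -0.32 ± 0.16, with a 95% interval of -0.66 to 0.031. That interval spans no difference, so a fall of nAChRa8 beyond that of the median gene was not resolved. The call was lost in 16 of 19 alternatives. nAChRb1, the abundant beta subunit, stood at 17.94 and 28.3 FPKM, against 40.29, 38.44 and 37.12 FPKM before exposure. It fell by 0.57 ± 0.17 (limma, adjusted p = 0.012) without overlap.

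The 4 remaining members did not pass at day 10. LOC408934, which makes acetylcholine, stood at 9.64 and 21.55 FPKM, against 24.07, 34.13 and 18.05 FPKM before exposure. Its groups overlapped, with a log2 difference of -0.55 ± 0.34 (limma, adjusted p = 0.156), and it passed without day 10 replicate 3 (adjusted p = 0.0306). nAChRa1 stood at 7.05 FPKM in before-exposure replicate 1 and at 1.92 and 2.42 FPKM in replicates 2 and 3, and between 1.29 and 2.45 FPKM in the 8 exposed libraries. The mean before exposure thus rests on 1 library, and the difference at day 10 was -0.67 ± 0.35 (limma, adjusted p = 0.113), or -0.39 as deposited without that library (adjusted p = 0.258). It passed without before-exposure replicate 2 (adjusted p = 0.0467).

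nAChRb2 and nAChRa9, divergent members of the honeybee receptor family, lay on the other side of the median gene. nAChRb2 stood at 2.96 and 3.06 FPKM at day 10, against 2.1, 2.24 and 2.87 FPKM before exposure, just above without overlap. nAChRa9 stood at 2.24 and 4.57 FPKM, against 2.66, 1.74 and 1.18 FPKM, and these overlapped. Their log2 differences were 0.42 ± 0.25 and 0.78 ± 0.39 (limma, adjusted p = 0.544 and 0.304). In the RefSeq annotation of the assembly Amel_HAv3.1 these 2 genes are direct neighbours, as are nAChRa1 and nAChRa2, and nAChRa7 and nAChRb1 have 1 gene between them. The neighbours nAChRa1 and nAChRa2 had mean levels of 2.21 and 28.6 FPKM over the 11 libraries.

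**Figure D2:**
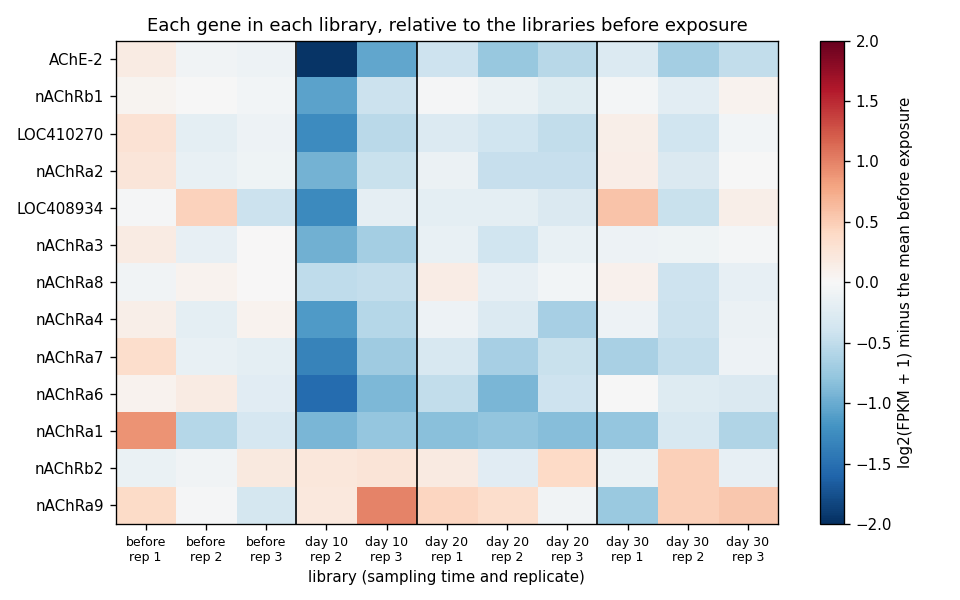
Difference of log2(FPKM + 1) from the mean of the 3 libraries before exposure (colour scale) for the 13 genes (rows, by level before exposure) in each library (columns, by sampling time and replicate). The deepest value is that of AChE-2 in day 10 replicate 2 (-1.96). AChE-2 is below 0 in all 8 exposed libraries, as are nAChRa3, nAChRa4, nAChRa7, nAChRa6 and nAChRa1.

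Against the neuron markers, the fall of most members was no longer seen. Each library was scaled to the mean log2 level of the 14 neuron markers, and differences on this scale are given without subtracting the median gene, which lay at 0.59. nAChRa3 differed by -0.0042 ± 0.15 at day 10 (95% interval -0.34 to 0.33), nAChRb1 by 0.08 ± 0.12 (-0.18 to 0.34), LOC410270 by -0.08 ± 0.16 (-0.43 to 0.28) and nAChRa4 by -0.06 ± 0.16 (-0.42 to 0.30). nAChRa7 differed by -0.29 ± 0.23 (-0.80 to 0.22), nAChRa2 by 0.13 ± 0.15 (-0.20 to 0.45) and nAChRa8 by 0.32 ± 0.14 (0.0074 to 0.63; limma, adjusted p = 0.07). These values were all below that of the median gene. AChE-2 was still lower, by -0.66 ± 0.16 (-1.01 to -0.31; limma, unadjusted p = 0.00147, adjusted p = 0.00568), and so was nAChRa6, by -0.62 ± 0.21 (-1.08 to -0.16; unadjusted p = 0.0123, adjusted p = 0.0242). nAChRa9 and nAChRb2 were higher than before exposure on this scale, by 1.23 ± 0.37 and 0.90 ± 0.27 (limma, adjusted p = 0.0154 and 0.0157). On this scale 60.6% of all genes were called higher and 0.6% lower, so a member called higher is no exception among all genes. The marker list was matched by words and holds some genes, such as CUGBP Elav-like members and a YKT6 homologue, that are not restricted to neurons.

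**Figure D3:**
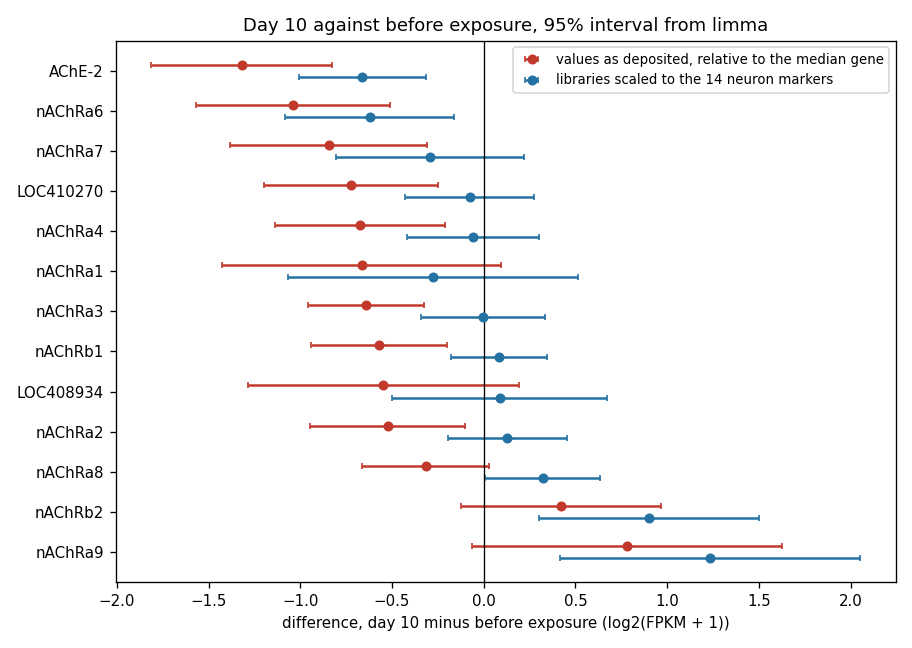
Difference of log2(FPKM + 1) between day 10 and before exposure (horizontal axis) for each gene, with the 95% interval of the limma fit, as deposited and relative to the median gene (red) and after scaling to the neuron markers (blue). After scaling, AChE-2 (-1.01 to -0.31) and nAChRa6 (-1.08 to -0.16) have intervals below 0, and nAChRa3 (-0.34 to 0.33) spans it.

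At days 20 and 30 none of the members passed against before exposure. At day 20, 0 of 13 members and 0% of 7830 genes passed with limma, with 3 members and 774 genes at an unadjusted p under 0.05. At day 30 the count was again 0 of 13 and 0% of genes, with 1 member and 562 genes at an unadjusted p under 0.05. In 5 members the 3 day 20 libraries lay below the 3 earlier ones (18.9% of all genes) and in none above (1.63%). At day 30 this held for 1 member, AChE-2 (7.02% of genes lower, 3.37% higher, no member higher). The 10 subunits summed to 173.78, 145.11 and 149.11 FPKM before exposure and to 77.81 and 108.93 FPKM at day 10. Their sums were 145.67, 122.28 and 123.78 FPKM at day 20, then 148.29, 129.48 and 149.94 FPKM at day 30. The day 10 sums were below all others, and the later ones overlapped the range before exposure.

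AChE-2 lay below its earlier range at all 3 later times. At day 20 its libraries held 55.77, 43.5 and 50.15 FPKM, and those of day 30 held 61.03, 46.19 and 52.78 FPKM, all below the lowest value before exposure, 69.2 FPKM. It was the 1 member of 13 in which all 8 exposed libraries lay below all 3 earlier ones, which held for 4.28% of all genes. The log2 difference was -0.46 ± 0.20 at day 20 (limma, adjusted p = 0.431) and -0.51 ± 0.20 at day 30 (adjusted p = 0.646). For the mean of the 3 exposed days it was -0.76 ± 0.17 (limma, adjusted p = 0.0424), and AChE-2 was the 1 member called, against 1.93% of all genes called, 1.61% lower and 0.319% higher. That call was lost in 13 of 18 alternatives, with adjusted p between 0.00753 and 0.18, and was lost when any library other than day 10 replicate 3 or day 30 replicate 1 was left out.

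nAChRa6 and nAChRa3 overlapped their earlier ranges by day 30. At day 20 nAChRa6 held 3.43, 2.31 and 3.67 FPKM, below all values before exposure. By day 30 its values were 5.21, 4.17 and 4.1 FPKM, overlapping them. For nAChRa3 the values were 21.41, 17.98 and 21.43 FPKM (day 20) and 22.29, 22.51 and 23.18 FPKM (day 30), both overlapping the earlier range of 21.18 to 26.83. At day 30 its 3 libraries agreed to within an SD of 0.464 FPKM.

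AChE-2 was set against the summed subunits and against LOC410270 in ratios chosen after the values were seen and therefore given without a test. AChE-2 over the summed receptor subunits was 0.481, 0.488 and 0.464 before exposure and 0.236 and 0.328 at day 10. It was 0.383, 0.356 and 0.405 at day 20, then 0.412, 0.357 and 0.352 at day 30. All 8 exposed libraries were below the 3 earlier ones. AChE-2 over LOC410270, the other cholinesterase, was 1.97, 2.34 and 2.14 before exposure and 1.32 and 1.52 at day 10. It was 1.95, 1.68 and 2.05 at day 20, then 1.61, 1.77 and 1.58 at day 30. Here day 20 overlapped the earlier range, and days 10 and 30 did not.

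**Figure D4:**
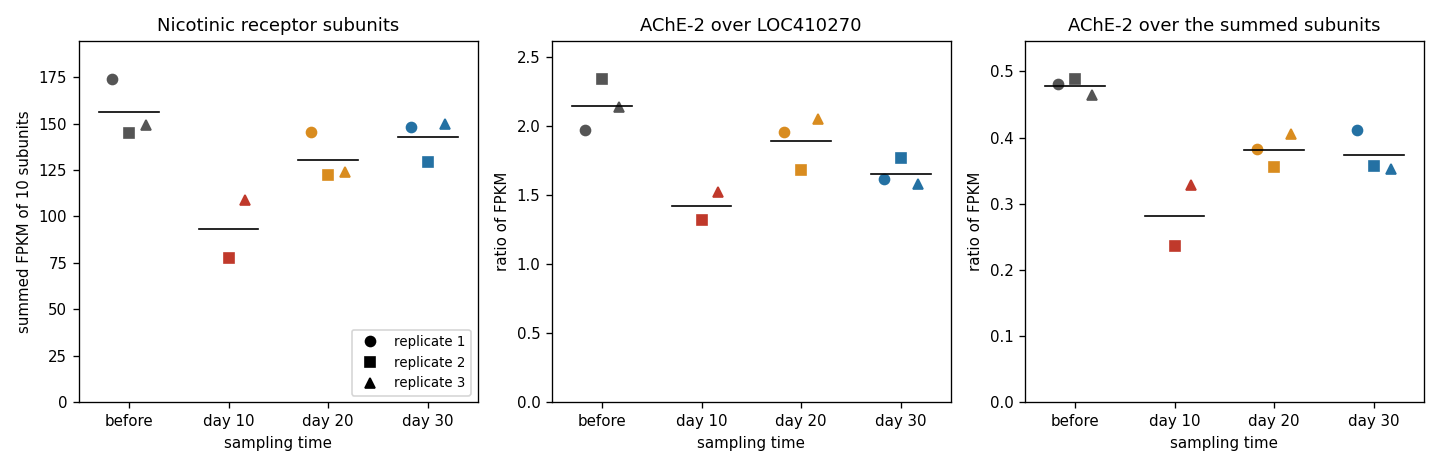
Summed FPKM of the 10 nicotinic receptor subunits (left), the ratio of AChE-2 to LOC410270 (middle) and the ratio of AChE-2 to the summed subunits (right) in each library by sampling time, with the mean as a bar and the replicate number as symbol shape. The right ratio lies between 0.464 and 0.488 before exposure and between 0.236 and 0.412 in the 8 exposed libraries.

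Between the exposed days, members were higher at day 30 than at day 10. Of the 13 members 5 were called higher and none lower (limma, adjusted p under 0.05), against 9.41% of all genes called higher and 1.37% lower. In 9 members all day 30 libraries were above both day 10 libraries (37.6% of all genes), and in none below (5.68%). nAChRa3 differed by 0.53 ± 0.15 (limma, adjusted p = 0.0254), AChE-2 by 0.80 ± 0.23 (0.0301), nAChRa6 by 0.82 ± 0.24 (0.0313), nAChRb1 by 0.47 ± 0.17 (0.0343) and LOC410270 by 0.58 ± 0.22 (0.0432). The count was 0 without day 10 replicate 2, without day 30 replicate 1, without day 30 replicate 3 and with median-of-ratios scaling. Of all genes 0.192% were called higher with median-of-ratios scaling, 0.0511% without day 30 replicate 1 and 0% without day 30 replicate 3. The count of members was 3 without day 20 replicate 2 or 3, where 4.01% and 3.31% of all genes were called higher. It was 8 without day 30 replicate 2, where 13.4% of all genes were. With scaling to the neuron markers 3 members, nAChRa8, nAChRa9 and nAChRb2, were called lower at day 30 than at day 10, as were 57.3% of all genes. At day 20 against day 10, 0 of 13 members passed, with adjusted p from 0.0849 upward and 8 at an unadjusted p under 0.05, and 0.102% of all genes were called, 0.0255% higher and 0.0766% lower. In 6 members the libraries of day 20 lay above those of day 10 (28.5% of genes), and in none below (16.8%). Without day 10 replicate 3, 1 library remains at day 10, and the median log2 difference of all genes went from 0.09 to 0.14. At day 30 against day 20, 0 of 13 members and 0% of genes passed with limma, with 0 members and 503 genes at an unadjusted p under 0.05. In 3 members all day 30 libraries were above all of day 20 (13.4% of genes), and in none below (1.42%).

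The 9 members that fell at day 10 also varied together over the 11 libraries. Over their 36 pairs the Pearson r of log2(FPKM + 1) lay between 0.573 and 0.982, with a median of 0.879, and relative to the median gene of each library the median was 0.814. The highest was that of nAChRa2 and LOC410270. These values are descriptive: the genes share libraries and their scaling, and the drop at day 10 enters every pair. nAChRb2 had an r of 0.17 with nAChRa9 and between -0.57 (LOC408934) and -0.22 (nAChRa1) with the other 11.

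Many genes outside the family followed the same pattern over the libraries. Of 5850 genes averaging at least 5 FPKM, 361 had r above 0.9 with nAChRa3 and 569 with AChE-2, while the median r was 0.399 and 0.444. The 5 most similar to nAChRa3 were LOC726065 (uncharacterized, r = 0.982), LOC409640 (a proton-coupled amino acid transporter-like protein, 0.981), LOC411155 (teneurin-a, 0.979), LOC107965037 (a probable serine/threonine kinase, 0.975) and LOC408841 (a calcium channel alpha-2/delta subunit, 0.973). Those most similar to AChE-2 were LOC413029 (the kinase OSR1, r = 0.988), LOC410353 (CUGBP Elav-like 4, also matched by the neuron marker list, 0.987), LOC552519 (clustered mitochondria protein, 0.984), LOC409753 (unkempt, 0.983) and LOC551291 (spectrin alpha chain, 0.982), all over n = 11 libraries.

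Of 8 other genes of choline transport, vesicle loading, muscarinic reception and choline or ethanolamine phosphorylation, 7 fell at day 10 and none rose. The gene that did not pass was LOC102656504, an ethanolamine kinase (log2 difference 0.88 ± 0.43, limma, adjusted p = 0.273). The median of the 8 was -0.78 as deposited, against -0.18 for all genes and 16.9% of all genes called lower. LOC725064, the transporter that loads acetylcholine into vesicles and the direct neighbour of LOC408934 in the RefSeq annotation, fell from 60.0 ± 15.3 (SD, n = 3) to 30.5 ± 5.93 FPKM (n = 2). Its log2 difference was -0.76 ± 0.20 (limma, adjusted p = 0.00962). LOC412299, the muscarinic receptor DM1, fell from 76.9 ± 10.6 to 36.4 ± 15.3 FPKM, by -0.93 ± 0.24 (adjusted p = 0.0111). LOC408935, a high-affinity choline transporter that takes choline back up, differed by -0.75 ± 0.25 (adjusted p = 0.025), and LOC411525, a choline/ethanolamine kinase, by -0.50 ± 0.18 (adjusted p = 0.0235). At days 20 and 30 none of the 8 passed, with medians of -0.27 and -0.11 as deposited.

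Of 6 genes that help assemble or modulate the receptors 1 fell at day 10 and none rose, a share near the 16.9% of all genes called lower. The median was -0.28 as deposited, against -0.18 for all genes. That 1 was LOC100577019, quiver, known in Drosophila as the sleep-promoting protein Sleepless, which fell from 30.4 ± 2.78 (SD, n = 3) to 14.7 ± 2.81 FPKM (n = 2; log2 difference -0.83 ± 0.17, limma, adjusted p = 0.00594). LOC551494, the receptor chaperone RIC-3, went from 32.2 ± 1.68 to 24.8 ± 3.76 FPKM (log2 difference -0.19 ± 0.16, adjusted p = 0.132). LOC725048, nodal modulator 3, and LOC551755, transmembrane protein 35A, whose mammalian counterpart is a chaperone of the alpha7 receptor, differed by -0.02 ± 0.12 and -0.18 ± 0.23 (adjusted p = 0.283 and 0.30).

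Of 6 other measured channel subunits of the same Cys-loop superfamily, gated by GABA, glutamate or histamine, 4 fell at day 10 and none rose. Of all genes 16.9% were called lower and 2.22% higher. The median was -0.86 as deposited, against -0.18 for all genes. LOC406124, a GABA receptor beta subunit, differed by -0.90 ± 0.18 (limma, adjusted p = 0.00594), GluCl, the glutamate-gated channel, by -0.61 ± 0.15 (0.00721), LCCH3 by -0.75 ± 0.19 (0.00858) and Hiscl1, a histamine-gated channel, by -1.004 ± 0.37 (0.0419). Of 19 proteins of the cholinesterase-like fold 13 were measured, and 4 of these fell at day 10 and none rose, against the same 16.9% and 2.22% of all genes. The median was -0.36 as deposited. LOC410779 (neuroligin 2, -1.26 ± 0.26), NLG-4 (-0.96 ± 0.21) and NLG-3 (-0.56 ± 0.18), synaptic adhesion proteins without esterase activity, and LOC410187 (esterase E4, -0.47 ± 0.19) were the 4, with limma adjusted p between 0.00664 and 0.0308.

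LOC408525, the subunit described as alpha-10, stood at 10.14 and 13.58 FPKM at day 10, against 19.48, 15.4 and 19.2 FPKM before exposure. The groups did not overlap, and the log2 difference of -0.39 ± 0.20 did not pass (limma, adjusted p = 0.0598).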

How the data were processed

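The deposited table gives 1 FPKM column per library, rounded to 2 decimals by the authors, with the unit stated per the file headers. Among the tools in the submitters' processing notes are HISAT2 2.1.0, fastp 0.18.0 and StringTie, without their roles. Genome build and strand use: not given in the sources used here. Of 12 FPKM columns 1, whose name has the form of the day 10 columns, matched no labelled library and was not analysed here, so day 10 rests on 2 libraries. FPKM keep no counts, and low values (0.5 to 2 FPKM) showed no steps of whole reads (at most 5.07% of genes within 1% of the commonest ratio between 2 libraries), so depth is unknown and no counting error is given. Summed FPKM ranged from 264416 to 468358.

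With limma 3.58.1 (R 4.3.3), 1 fit of 4 group means over the 11 libraries (7 residual degrees of freedom, trended prior variance) was made to log2(FPKM + 1) for the 7830 genes averaging at least 1 FPKM. Benjamini-Hochberg adjustment ran over all tested genes in each of 7 comparisons, and calls are adjusted p under 0.05. The pseudocount understates changes of low genes such as nAChRa6, nAChRa1, nAChRb2 and nAChRa9. The fit was tested on simulated data drawn independently for each gene, with no shift common to all genes. That test therefore does not cover the error rate where the median gene shifts, as at day 10. All 13 members matched the RefSeq gene table of Amel_HAv3.1, used for names and neighbours only; there nAChRa8, LOC410270, nAChRa7 and nAChRa3 each overlap 1 other gene, and reads cannot be assigned between overlapping genes without strand. The members, lists and alternatives were chosen with earlier results of these data known. All members are named; of each list up to 4 genes with the smallest p at day 10 are named, and for nAChRa3 and AChE-2 the 5 genes with the highest r.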

Additional observations from a re-analysis of the deposited data

Results flagged for a closer look

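In 5 genes the difference from before exposure was not the same at day 30 as at day 10, by the direct limma test of day 30 against day 10. As deposited, the log2 difference between these times was 1.02 for AChE-2 (adjusted p = 0.0301), 0.79 for LOC410270 (0.0432), 0.69 for nAChRb1 (0.0343), 1.03 for nAChRa6 (0.0313) and 0.74 for nAChRa3 (0.0254). All 3 day 30 libraries were above both day 10 libraries in each of the 5, as in 37.6% of all genes. None of the 5 was called higher with median-of-ratios scaling or in a fit of only the groups compared. The same held without day 30 replicate 1 and without day 30 replicate 3. Groups of 2 or 3 libraries are too small for the test of single outlying libraries.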

How the results depend on the processing

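A set of 8 alternatives and the leaving out of each of 11 libraries were run. Of 9 members called lower at day 10, 4 were called with median-of-ratios scaling and with quantile normalization, 2 with scaling to the neuron markers, and 0 to 9 when 1 library was left out. With scaling to the neuron markers, nAChRa9 and nAChRb2, which are not among the 9, made 2 called higher. With the replicate number as a block 8 were called at day 10, where 13.7% of all genes were called lower. At day 30 against day 10 that fit called 2 members higher rather than 5, with 4.44% of all genes rather than 9.41%. Same-numbered libraries correlated in their deviations between -0.24 and 0.31, with 3 of 15 pairs over 0.1. Of 11 libraries 4 were closest to one of their own number. Pairs of unlike number ran from -0.31 to 0.24. Deviations from a mean of 2 or 3 libraries are tied to each other, so whether the numbers pair the libraries was not resolved. For the mean of the exposed days, the 1 call became 0 without the filter on low values, with no trend, and with both median-of-ratios scaling and quantile normalization, and 0 to 7 when 1 library was left out; a fit of only the groups compared is the same fit there. At day 30 against day 10 the 5 higher members became 0 with median-of-ratios scaling, 1 with quantile normalization, 3 without the trend, 0 with only the groups compared, and 0 higher and 3 lower with scaling to the neuron markers, and 0 to 9 when 1 library was left out. At day 20 against day 10 the count of 0 stayed 0 except in a fit left with 1 library at day 10. The number of all genes called lower at day 10 was 1326 as deposited, 449 with median-of-ratios scaling and 549 with quantile normalization. It was 756 with only the groups compared and 47 with scaling to the neuron markers. At day 30 against day 10 the number of all genes called higher was 737 as deposited and 338 without the trend. It was 15 with median-of-ratios scaling, 65 with quantile normalization, 1 with only the groups compared and 17 with scaling to the neuron markers. For the mean of the exposed days, 126 of all genes were called lower as deposited. That number was 1 without the filter on low values, without the trend, with median-of-ratios scaling and with quantile normalization. The cause of these shifts was not tested.

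Single values changed sign mostly with scaling to the neuron markers (19 of the 21 outside left-out libraries). On that scale, at day 10, nAChRa8 stood at 0.32, nAChRa2 at 0.13, LOC408934 at 0.087 and nAChRb1 at 0.082. At day 20 nAChRa8 stood at 0.22, LOC408934 at 0.019, nAChRb1 at 0.12 and nAChRa3 at 0.014, and over the exposed days nAChRa8 at 0.13, LOC408934 at 0.065 and nAChRb1 at 0.050. At day 30 against day 10 nAChRa8 stood at -0.47, nAChRa7 at -0.092, nAChRa2 at -0.17, LOC410270 at -0.023, nAChRb1 at -0.13, nAChRa4 at -0.15, nAChRa3 at -0.058 and nAChRa1 at -0.26. nAChRa8 at day 20 turned to 0.10 with median-of-ratios scaling and 0.092 with quantile normalization. With 1 library left out, uncalled values crossed 0 at day 20 for nAChRa8 (-0.11 to 0.044), LOC408934 (-0.44 to 0.0022) and nAChRb2 (-0.022 to 0.29), and at day 30 for nAChRa2 (-0.15 to 0.067), LOC410270 (-0.22 to 0.033), nAChRa3 (-0.16 to 0.0075), nAChRb2 (-0.14 to 0.17), LOC408934 (-0.16 to 0.35), nAChRa9 (-0.13 to 0.51) and nAChRb1 (-0.12 to 0.016). The depth behind the values is unknown.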
